A study of Mus musculus with 11 samples.

Results

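The genes described here encode the machinery that carries proteins and RNAs between nucleus and cytoplasm: nuclear pore proteins, importins, exportins and the Ran cycle. They were chosen by symbol, as every listed gene whose symbol starts with Nup, Ipo, Kpna or Kpnb and a number, or with Xpo. Added to these were Cse1l, Tnpo1, Tnpo2, Tnpo3, Ran, Rcc1, Rangap1 and Ranbp1. The rule found 47 genes of 13359 listed in either muscle, and the same 47 of 12128 listed in both. All 47 passed the filter on low values in both muscles. They comprise 19 pore genes, 5 importin alpha genes, 11 importins of the beta family, 7 exportins, 4 genes of the Ran cycle and 1 readthrough transcript, Ipo11-lrrc70. Some pore genes carry other symbols (Pom121, Ndc1, Tpr, Nupl1 and others) and are described separately below.

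RNA was sequenced from whole soleus and quadriceps muscle of mice aged 2.5 months. In the Myc groups (4 soleus and 2 quadriceps libraries), Myc was induced through a tetracycline-controlled, doxycycline-dependent expression system. Doxycycline was given overnight, and the muscles were taken 12 hours after it was withdrawn. The control groups (3 soleus and 2 quadriceps libraries) came from mice of the same age. The labels give neither the genotype of the controls nor whether they had doxycycline, nor the promoter that drives the system, nor whether a soleus and a quadriceps came from 1 animal. Soleus is a postural muscle rich in slow fibres, while quadriceps is mostly fast.

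Traffic into and out of the nucleus passes through nuclear pores, protein rings that span the nuclear envelope and are lined by flexible repeats. Importins bind cargo in the cytoplasm and exportins bind it in the nucleus. The small GTPase Ran sets the direction: Rcc1, on chromatin, keeps nuclear Ran bound to GTP, which frees cargo from importins and loads it onto exportins, and Rangap1, on the cytoplasmic side, makes Ran hydrolyse its GTP. Ribosome assembly leans heavily on this traffic, since ribosomal proteins are imported and finished subunits are exported. Myc is a transcription factor known for raising genes of ribosome assembly, and it binds DNA at the E-box CACGTG.

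Promoter sequences were searched for CACGTG, the E-box that Myc binds, as a description only. RefSeq sequences on GRCm38.p6, from 250 bases before to 50 after the annotated start, were held for 38 of the 47 genes. Those without an entry are Nup85, Xpo7, Cse1l, Nup35, Kpna3, Kpna1, Xpo4, Nup43 and Kpna6. CACGTG is its own reverse complement, so 1 search covers both strands, and no other motif was searched. Of the 12 genes called higher in Myc soleus, 4 held it (33.3%), and of the 26 others with an entry 4 held it (15.4%): Nup188, Nup54, Nup93 and Tnpo2. The share was 12.0% of all genes tested in soleus, 19.7% of those called higher, and 8.09% of all genes in the table. The promoters of the 4 called genes with the motif are shown with that of Ranbp1, the transport gene with the largest change in soleus, whose window does not contain these letters. Capitals mark CACGTG, each sequence runs 5′ to 3′ along the gene's strand, and the last base lies just before the annotated start, except in Ipo4, where 30 bases after it are included.
Ipo4, chr14:55635655-55635934, minus strand: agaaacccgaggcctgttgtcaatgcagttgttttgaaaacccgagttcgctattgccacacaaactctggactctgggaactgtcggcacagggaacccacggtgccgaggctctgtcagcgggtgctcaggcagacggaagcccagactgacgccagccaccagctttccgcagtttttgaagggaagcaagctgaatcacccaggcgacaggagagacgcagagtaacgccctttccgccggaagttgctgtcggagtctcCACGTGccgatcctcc
Ran, chr5:129019906-129020155, plus strand: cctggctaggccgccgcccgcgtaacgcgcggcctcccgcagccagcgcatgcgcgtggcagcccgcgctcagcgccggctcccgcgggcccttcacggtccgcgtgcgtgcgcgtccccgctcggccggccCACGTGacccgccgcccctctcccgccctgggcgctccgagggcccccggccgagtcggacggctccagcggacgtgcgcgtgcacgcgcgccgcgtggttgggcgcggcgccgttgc
Ipo7, chr7:110018065-110018314, plus strand: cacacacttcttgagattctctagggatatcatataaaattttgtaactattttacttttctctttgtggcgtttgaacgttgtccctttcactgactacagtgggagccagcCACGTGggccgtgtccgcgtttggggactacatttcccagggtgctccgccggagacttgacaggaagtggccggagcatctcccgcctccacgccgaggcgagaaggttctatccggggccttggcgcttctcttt
Xpot, chr10:121626333-121626582, minus strand: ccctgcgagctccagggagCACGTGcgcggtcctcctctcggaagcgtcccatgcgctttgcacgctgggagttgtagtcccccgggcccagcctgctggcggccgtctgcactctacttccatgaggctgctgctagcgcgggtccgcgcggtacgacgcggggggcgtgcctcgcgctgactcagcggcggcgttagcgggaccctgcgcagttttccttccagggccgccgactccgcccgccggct
Ranbp1, chr16:18248695-18248944, minus strand: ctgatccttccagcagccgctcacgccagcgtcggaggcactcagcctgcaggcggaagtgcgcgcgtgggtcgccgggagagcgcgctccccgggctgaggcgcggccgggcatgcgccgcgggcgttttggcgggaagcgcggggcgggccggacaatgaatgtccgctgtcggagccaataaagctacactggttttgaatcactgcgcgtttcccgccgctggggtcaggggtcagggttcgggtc
The first base of the motif lies 118 bases before the start in Ran, 137 in Ipo7 and 231 in Xpot, and 15 bases after it in Ipo4. In the genes not called, matches lie 66 and 24 bases before the start in Nup188 and 155 and 116 in Tnpo2. Those in Nup54 and Nup93 lie 100 and 175 bases before it. These are matches of letters, and binding at them was not measured.

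Depth was estimated at 11.1 to 14.9 M reads per soleus library and 14.2 to 18.4 M per quadriceps library. The Myc row itself held 28.4 ± 1.98 normalised reads in Myc soleus (SD, n = 4) and 37.5 ± 14.6 in control soleus (SD, n = 3; limma, adjusted p = 0.69), and 59.97 ± 37.4 in Myc quadriceps and 84.7 ± 41.0 in control quadriceps (SD, n = 2 each; limma, adjusted p = 0.934). This row does not identify the Myc libraries, so every direction given here rests on the labels. All 10 muscle fibre markers were present in both muscles. In soleus they summed to 1119000 to 1274000 normalised reads in Myc against 1266000 to 1449000 in control libraries, 9 of 10 had a negative log2 change, and the range was -2.59 to 0.04. In quadriceps they summed to 1873000 to 2438000 in Myc against 2011000 to 2304000 in control libraries, the slow myosin gene Myh7 being low in Myc quadriceps, as given below with Xpo4. Tendon markers, 6 of 6 listed, summed to 2009 to 6812 normalised reads in Myc soleus against 6899 to 8426 in control soleus, and in quadriceps to 254 to 3178 in Myc against 1298 to 3588 in control libraries, Chad being at 0 in some. Fibroblast markers, 6 of 6 listed, summed to 5445 to 17130 in Myc soleus against 13380 to 20280 in control soleus. Erythroid markers, 5 of 5 listed, summed to 3277 to 7523 in Myc soleus against 7444 to 7704 in control soleus (median log2 change -0.60, all negative), and Schwann cell markers, 5 of 5 listed, to 1224 to 3140 in Myc against 921 to 1613 in control soleus (median 0.46, all positive). Endothelial, macrophage and adipocyte markers were also all negative in soleus, with medians of -0.20, -0.38 and -0.48, and satellite cell markers, 4 of 5 listed, had a median of -0.31. No member of any marker list was called. Of 8 markers of proliferating cells 2 were listed in soleus, Mki67 and Ccna2. Their summed level was 18.3 to 52.1 in Myc and 16.01 to 29.35 in control libraries, and Mki67 was at 0 in at least 1 soleus library. The part of these cell types in the results was not tested. In whole muscle, fewer cells of a type and less RNA per cell cannot be told apart.

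In soleus, 12 of the 47 transport genes were higher in Myc than in control muscle and 0 were lower (limma on log2(value + 1), Benjamini-Hochberg adjusted p under 0.05). Among all 12745 genes tested, 9.29% were called, 7.06% higher and 2.23% lower. The 12 were Ranbp1, Ipo4, Rangap1, Nup210, Kpnb1, Ipo7, Xpo5, Xpot, Nup205, Kpna2, Ran and Ipo5. They cover every functional class except the outer ring, the central channel, the cytoplasmic filaments and the nuclear basket of the pore. Importin alpha and the inner ring are covered by 1 gene each, Kpna2 and Nup205. These 2 calls were lost in 8 and 12 of 18 alternative analyses. The log2 change was positive for 39 of 47 transport genes, against 45.6% of all genes, and its median was 0.30, against -0.03 over all genes. For 21 of 47 every Myc library lay above every control library, against 12.7% of all genes, and for 0 of 47 every Myc library lay below, against 8.35%. At an unadjusted p under 0.05, 22 transport genes were higher, against 12.9% of all genes, and 0 were lower, against 8.77%. The median over the 47 genes, taken in each library relative to the control mean, was 0.39, 0.22, 0.31 and 0.25 on the log2 scale in the 4 Myc libraries and 0.02, -0.06 and 0.04 in the 3 control libraries, so the shift was present in each Myc library. The count ranged from 10 to 15 over 18 alternative analyses.

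**Figure D1:**
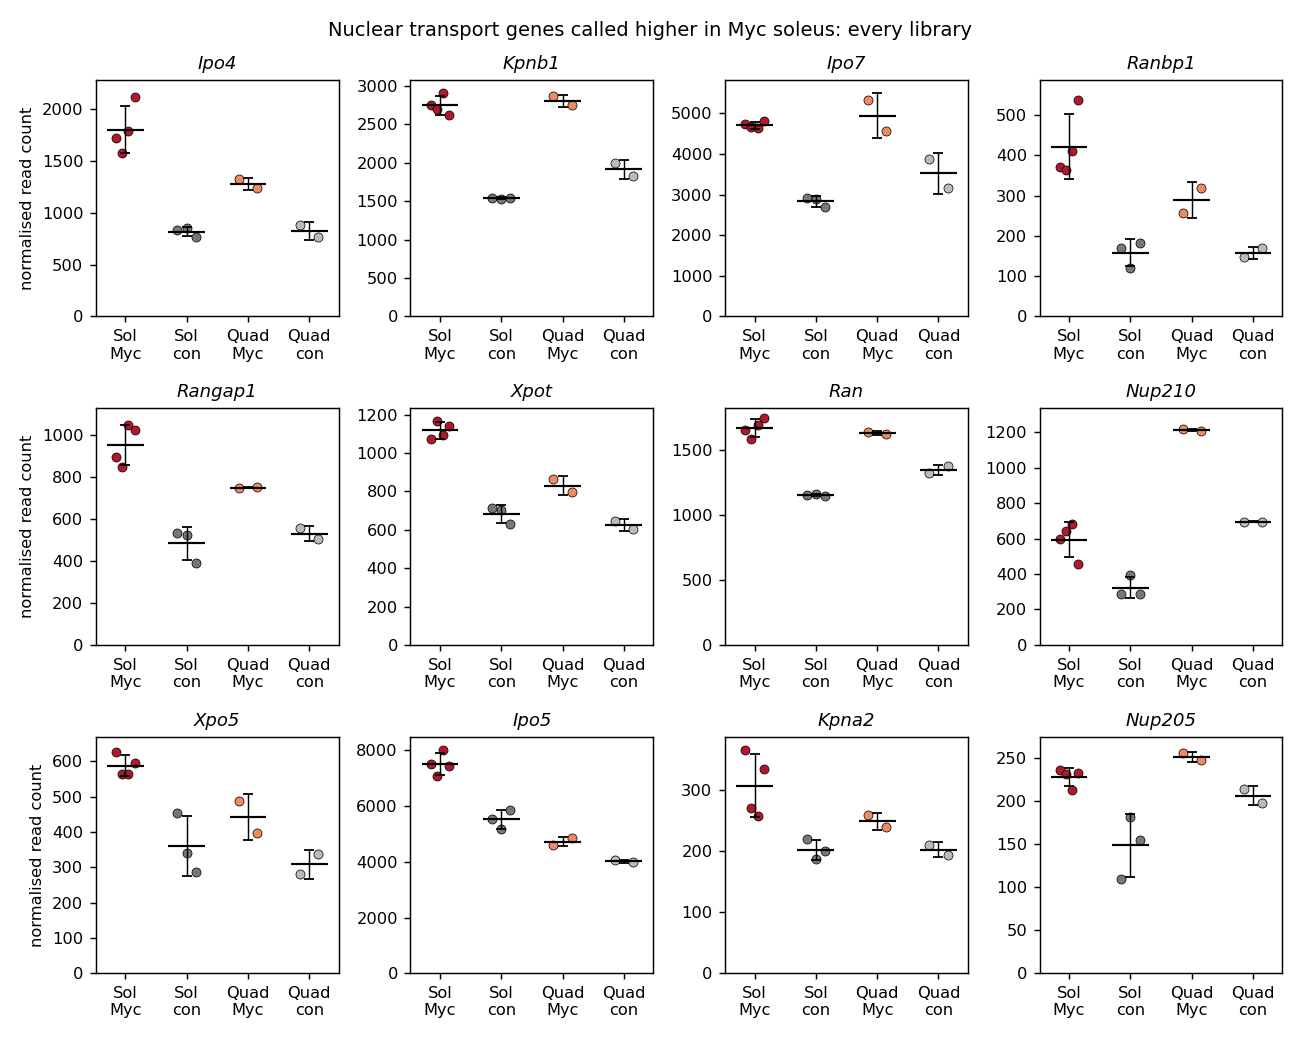
Normalised read counts of the 12 transport genes called higher in Myc soleus, in every library; points are libraries, horizontal bars group means and error bars SD (n = 4, 3, 2 and 2, left to right), with each vertical axis starting at 0. In 12 of 12 panels every Myc soleus library (Sol Myc) lies above every control soleus library (Sol con), and the 2 Myc quadriceps libraries (Quad Myc) lie above the 2 control quadriceps libraries (Quad con). The genes were picked for passing in these soleus libraries, so their separation there is no further evidence. In quadriceps both Myc libraries lay above both controls for 18.3% of all genes, and the share among all soleus-higher genes was not computed.

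The Ran cycle held 3 of the 12 called genes among its 4 members, with a median log2 change of 0.78. Over all genes tested in soleus, 7.06% were called higher and 2.23% lower, and the median was -0.03. Ranbp1, a cytoplasmic partner that helps Rangap1 strip Ran from export complexes, had 371, 364, 411 and 538 normalised reads in the Myc soleus libraries, against 171, 121 and 183 in the control ones. Every Myc library was about double the controls or more, a log2 change of 1.41 (SE 0.185; limma, adjusted p = 8.83e-05). Rangap1 itself had 896, 846, 1045 and 1021 normalised reads in Myc soleus and 533, 525 and 392 in control soleus, a log2 change of 0.98 (SE 0.131; limma, adjusted p = 9.76e-05). Ran had 1655, 1585, 1689 and 1748 normalised reads in Myc soleus and 1151, 1158 and 1143 in control soleus. Its controls lay within a few reads of each other, and its log2 change of 0.54 was the smallest of the 3 (SE 0.0914; limma, adjusted p = 0.000987). The nuclear exchange factor Rcc1 had 125, 128, 130 and 161 normalised reads in Myc soleus against 99.8, 52.4 and 140 in control soleus. The control libraries spread widely and overlapped the Myc ones, and the log2 change of 0.58 did not pass (SE 0.289; limma, adjusted p = 0.258). The ratio of Ranbp1 to Ran signal, which is not corrected for transcript length and so compares libraries only, was 0.224, 0.23, 0.243 and 0.308 in Myc soleus and 0.148, 0.105 and 0.16 in control soleus, and 0.157 and 0.197 in Myc quadriceps and 0.112 and 0.123 in control quadriceps. It was higher in every Myc library than in every control library of the same muscle, as follows from the larger change of Ranbp1.

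Of 11 importins of the beta family, 4 were called higher and 0 lower (7.06% and 2.23% of all genes), and the members of this class lay far apart. Ipo4, an import receptor for ribosomal proteins and histones, had 1719, 1577, 1786 and 2114 normalised reads in Myc soleus against 833, 851 and 769 in control soleus. That was 2.19-fold, with a log2 change of 1.13 and the smallest p of the 47 genes (SE 0.11; limma, adjusted p = 4.2e-06). Kpnb1, importin beta itself, which carries cargo alone or through importin alpha, had 2750, 2702, 2913 and 2624 normalised reads in Myc soleus and 1547, 1523 and 1540 in control soleus. Both groups were tight (SD 122 and 12.5), and the log2 change was 0.84 (SE 0.0887; limma, adjusted p = 9.5e-06). Ipo7, another receptor for ribosomal proteins, had 4731, 4654, 4634 and 4808 normalised reads in Myc soleus and 2916, 2897 and 2686 in control soleus, a log2 change of 0.73 (SE 0.0865; limma, adjusted p = 3.09e-05). Ipo5, which shares ribosomal protein and histone cargo with them, had 7478, 7067, 7990 and 7436 normalised reads in Myc soleus and 5520, 5178 and 5838 in control soleus. Its groups were also apart, by a smaller log2 change of 0.44 (SE 0.0903; limma, adjusted p = 0.00419).

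The 7 other importins of this family were not called in soleus. Tnpo2 and Tnpo1, which import RNA-binding proteins such as Hnrnpa1, had log2 changes of 0.32 and 0.15 (limma, adjusted p = 0.193 and 0.651), and Tnpo3, the receptor for splicing factors rich in serine and arginine, 0.27 (limma, adjusted p = 0.193). Ipo11, Ipo9 and Ipo13 lay between -0.02 and 0.11. Ipo8, a relative of Ipo7 known to carry Argonaute and Smad proteins, had 297 ± 38.4 normalised reads in Myc soleus (SD, n = 4) and 345 ± 37.2 in control soleus (SD, n = 3), the lowest log2 change of the 47 genes at -0.22 (95% interval -0.54 to 0.10; limma, adjusted p = 0.437). For Ipo9 and Ipo13 the 95% intervals, -0.27 to 0.26 and -0.25 to 0.21, did not reach the changes measured for Ipo5, Ipo7, Kpnb1 or Ipo4. The interval of Ipo5, 0.252 to 0.635, overlapped that of Ipo9, and differences between genes were not tested. The readthrough transcript Ipo11-lrrc70 had 0.71 (limma, adjusted p = 0.115), but it shares 41864 bases with Ipo11 and the reads of both cannot be told apart.

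Importin alpha proteins are the adaptors that read the classical nuclear localisation signal and hand it to Kpnb1. Of the 5 listed genes only Kpna2 was called in soleus, where 7.06% of all genes were called higher. With 5 genes this count alone does not set the class apart. Kpna2 had 366, 271, 258 and 334 normalised reads in Myc soleus and 220, 187 and 201 in control soleus, a log2 change of 0.59 (SE 0.168; limma, adjusted p = 0.0373). The groups did not overlap, but the call was lost when Myc replicate 1 or 4 or control replicate 1, 2 or 3 was left out (limma, adjusted p = 0.113, 0.109, 0.0588, 0.143 and 0.0799). Kpna1, Kpna6, Kpna3 and Kpna4 had log2 changes of 0.18, 0.10, 0.04 and -0.01 (SE 0.0903 to 0.0948; limma, adjusted p = 0.277, 0.571, 0.866 and 0.978). The upper ends of their 95% intervals, 0.37, 0.30, 0.24 and 0.19, lay below the change measured for Kpna2. The interval of Kpna2 itself, 0.23 to 0.943, overlapped those of Kpna1, Kpna6 and Kpna3, and differences between genes were not tested. Kpna2 made up 4.35%, 3.37%, 3.04% and 4.03% of the summed importin alpha signal in the Myc soleus libraries and 2.74%, 2.53% and 2.5% in the control ones, shares that are not corrected for transcript length. It was a small part of the family's signal in every library.

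Among 7 exportins, 2 were called higher in soleus and 0 lower (7.06% and 2.23% of all genes). With 7 genes these counts alone do not set the class apart. Xpot, the export receptor for tRNA, had 1071, 1165, 1093 and 1142 normalised reads in Myc soleus and 715, 703 and 629 in control soleus, a log2 change of 0.71 (SE 0.101; limma, adjusted p = 0.000184). Xpo5, which exports microRNA precursors, had 627, 565, 564 and 595 normalised reads in Myc soleus and 454, 342 and 288 in control soleus. The controls spread more than the Myc libraries without reaching them, and the log2 change was 0.72 (SE 0.147; limma, adjusted p = 0.00406). Both of these exportins carry RNA. Xpo1, the receptor for leucine-rich export signals that also takes out ribosomal subunits, had 722, 534, 568 and 621 normalised reads in Myc soleus and 546, 578 and 620 in control soleus. These groups overlapped, with a log2 change of 0.06 and a 95% interval of -0.20 to 0.33 (limma, adjusted p = 0.82). Cse1l, which returns importin alpha to the cytoplasm, had 1450, 1234, 1439 and 1270 normalised reads in Myc soleus and 1117, 992 and 1113 in control soleus. Its groups did not overlap, and its log2 change of 0.33 fell just short (SE 0.103; limma, adjusted p = 0.0584). Xpo7 and Xpo6, the exportin of actin and profilin, had 0.15 and 0.09, and neither passed.

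Of the 19 pore genes, 2 were called higher in soleus and 0 lower, a share near that of all genes (7.06% higher and 2.23% lower), so the calls alone do not set the class apart. The median log2 change was 0.30, against -0.03 over all genes, with a range from -0.18 to 0.88, and 16 of 19 were positive, against 45.6% of all genes. Nup210, which spans the membrane at the pore and is known in mouse for a role in muscle differentiation, had 599, 640, 683 and 456 normalised reads in Myc soleus and 287, 393 and 290 in control soleus. The lowest Myc library still lay above the highest control, and the log2 change was 0.88 (SE 0.159; limma, adjusted p = 0.00167). Nup205, a large scaffold protein of the inner ring, had 236, 231, 212 and 232 normalised reads in Myc soleus and 109, 181 and 155 in control soleus, a log2 change of 0.64 (SE 0.196; limma, adjusted p = 0.0496). That call was at the threshold and was lost when any 1 library except control replicate 2 was left out: without control replicate 1 or 3 the limma adjusted p was 0.229 and 0.0727, and without Myc replicate 1, 2, 3 or 4 it was 0.103, 0.0976, 0.0718 and 0.111.

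The other 4 inner ring genes were positive in soleus as well, Nup155 at 0.55 (limma, adjusted p = 0.0573), Nup188 at 0.36, Nup93 at 0.27 and Nup35 at 0.08. Nup155, chosen for mention after its values were seen, had 199 to 261 normalised reads in Myc soleus and 148 to 171 in control soleus, with no overlap. The outer ring, the Y-shaped scaffold, was divided. Nup85, Nup37, Nup107 and Nup43 had log2 changes of 0.45, 0.37, 0.31 and 0.11, and Nup133 and Nup160 had -0.10 and -0.12. Of these 6 genes 0 were called, where 9.29% of all genes were, so the count does not set the outer ring apart. In the central channel, Nup62, whose repeats fill the pore, had 0.30 (limma, adjusted p = 0.167), Nup54 0.19, and Nup98, a mobile repeat protein that is also found on chromatin, -0.18 (95% interval -0.48 to 0.12; limma, adjusted p = 0.489). Nup98 overlaps Art1 and Pgap2 and Nup62 overlaps Atf5, all listed, so their reads may be shared. The same holds for Nup214 with Fam78a, Nup43 with Pcmt1, Nup88 with Rabep1 (48 bases) and the importin Tnpo3 with Irf5 (1043 bases). On the cytoplasmic face Nup214 had 0.42 and Nup88 0.13, and in the basket on the nuclear face Nup50 had 0.31 and Nup153 0.28, none of them called. Nup214 had 330, 376, 429 and 406 normalised reads in Myc soleus and 284, 288 and 289 in control soleus, with no overlap (limma, adjusted p = 0.077).

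**Figure D2:**
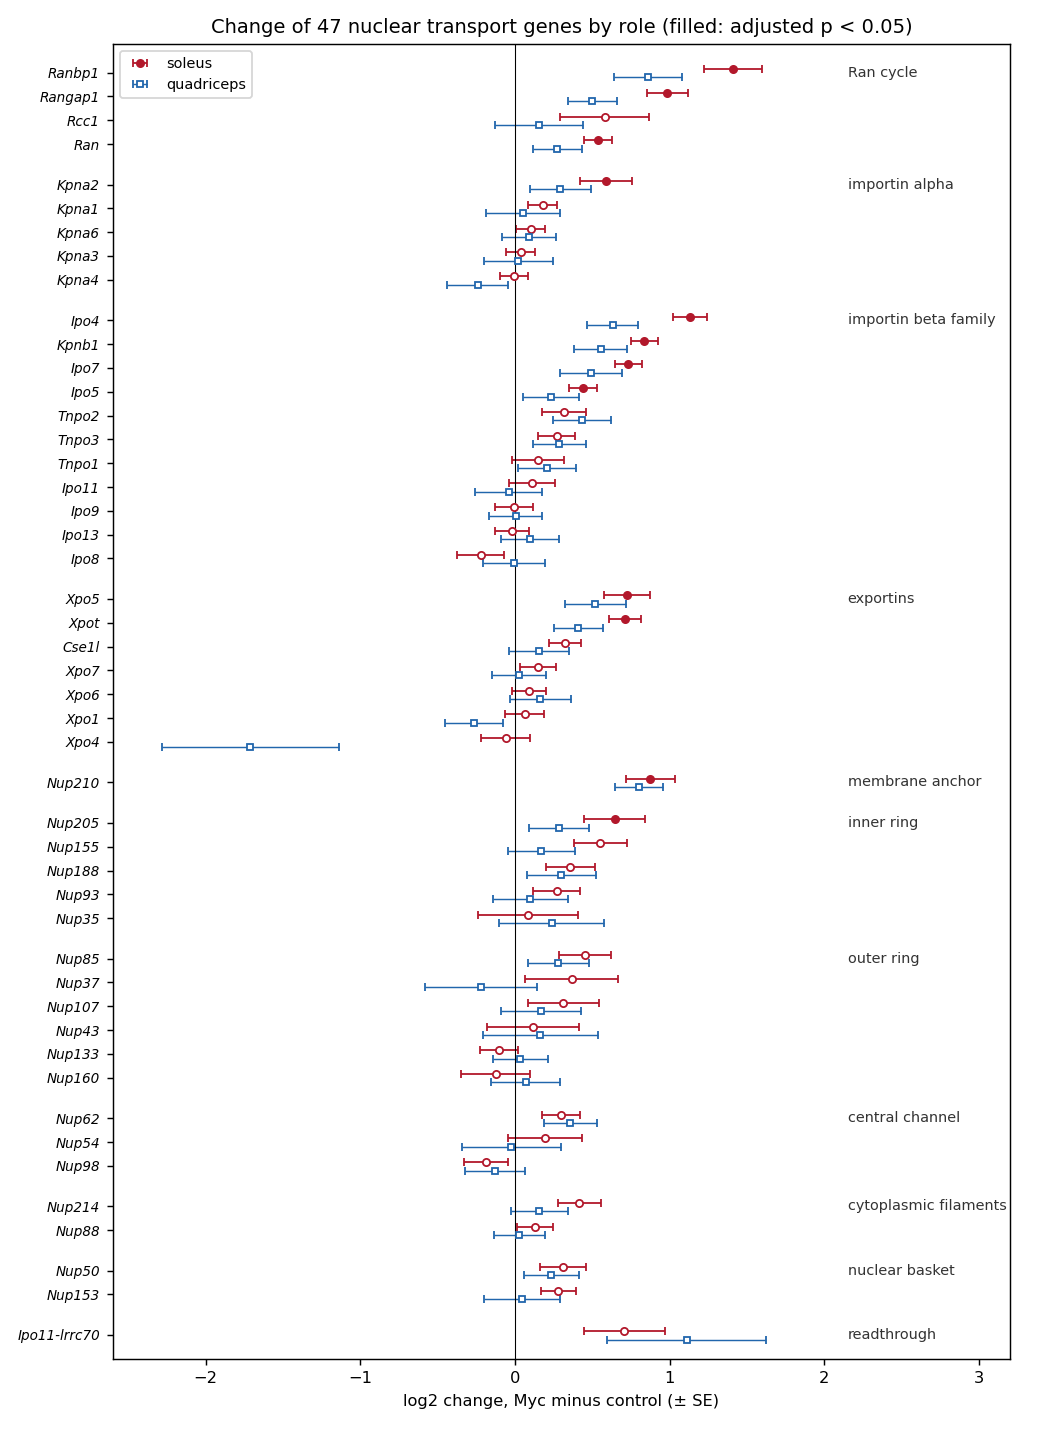
Log2 change, Myc minus control, of each of the 47 genes with its SE, in soleus (circles) and quadriceps (squares), grouped by role; filled symbols passed adjusted p under 0.05. Filled symbols are 12 soleus values, spread over 6 of the roles, and Xpo4 in quadriceps lies far to the left of every other value at -1.71.

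Pore proteins outside the naming rule were counted separately, and the 2 sets of pore genes were not tested against each other. Of 13 tested in soleus, 6 were called higher and 0 lower (7.06% and 2.23% of all genes), with a median log2 change of 0.38: Ndc1 (0.76), Pom121 (0.64), Rae1 (0.64), Ahctf1 (0.63), Nupl2 and Tpr. Ndc1, Pom121 and Nup210 are membrane-spanning pore proteins, and each of these 3 was called higher. Tmem33, another membrane protein of this list, was not called. Pom121 had 607, 553, 551 and 445 normalised reads in Myc soleus and 362, 382 and 290 in control soleus (SE 0.144; limma, adjusted p = 0.00822). Ahctf1, which seeds pore assembly on chromatin, had 712, 673, 734 and 567 normalised reads in Myc soleus and 391, 409 and 498 in control soleus (SE 0.131; limma, adjusted p = 0.00468). Both sets of libraries were apart. Ndc1 had 286, 349, 299 and 346 normalised reads in Myc soleus and 195, 144 and 237 in control soleus (SE 0.182; limma, adjusted p = 0.0131). The call of Ndc1 was lost without control replicate 2 (0.0892), and that of Rae1, an mRNA export factor docked at the pore (SE 0.16; limma, adjusted p = 0.0172), without control replicate 1 or 3 or Myc replicate 3 or 4 (0.0539, 0.0553, 0.0521 and 0.0593). Without control replicate 2 the count of 6 was 3.

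Neighbouring steps of the pathway held 2 or 3 calls each in soleus, all of them higher, where 7.06% of all genes were called higher. With lists of 10 to 21 genes these counts lie within 2 genes of that background. Among 10 other carriers and Ran cofactors 2 were called, Rangrf (Mog1), which binds Ran and releases its nucleotide, and Nmd3, the adaptor that links the large ribosomal subunit to Xpo1. Rangrf had 550, 501, 515 and 584 normalised reads in Myc soleus and 266, 315 and 254 in control soleus, a log2 change of 0.95 (SE 0.133; limma, adjusted p = 0.000157). Nmd3 had 447, 342, 537 and 371 normalised reads in Myc soleus and 299, 233 and 257 in control soleus, a log2 change of 0.67 (SE 0.167; limma, adjusted p = 0.0166), and its call was lost without control replicate 2 or Myc replicate 3 (0.0873 and 0.056), leaving 1 gene of this list called. The median of the list was -0.01, and 5 of its 10 genes had a positive log2 change. Among 21 genes of mRNA export 3 were called: Ncbp1, of the cap-binding complex (0.64), the helicase Ddx39b (0.49) and Eny2 (0.47; limma, adjusted p = 0.0468), with a median of 0.22. The call of Eny2 was lost without control replicate 1 or 2 or Myc replicate 2, 3 or 4 (0.156, 0.178, 0.105, 0.121 and 0.0985). Among 17 genes of the nuclear envelope and lamina 2 were called, Lmnb2, a B-type lamin (1.25, SE 0.285), and the chromatin-envelope linker Banf1 (0.62). The median of these 17 genes was -0.03. Lmnb2 had 106, 133, 135 and 254 normalised reads in Myc soleus and 65.4, 54.3 and 66.9 in control soleus, so Myc replicate 4 stood far above the rest. Its call was lost without Myc replicates 3 and 4 together (limma, adjusted p = 0.106). Among 16 genes of the SUMO cycle, which modifies Rangap1 at the pore, 2 were called, the activating enzyme subunit Uba2 (0.44) and the protease Senp2 (0.41). Without control replicate 1 or control replicate 3 this list had 0 calls, and without any other single library it had 1. In quadriceps 0 genes of these 5 lists were called by limma, and 1 pore protein, 1 carrier or cofactor and 2 genes in each of the 3 other lists had an unadjusted p under 0.05, where 6.21% of all genes had.

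In quadriceps 0 of the 47 transport genes passed by limma, where 0.00815% of 12270 genes did, and 0 passed by limma-voom. At an unadjusted p under 0.05 there were 9 (6.21% of all genes), of which 8 were higher (3.97% of all genes) and Xpo4 was lower (2.24%). The direction was nevertheless mostly that of soleus: 39 of 47 log2 changes were positive, against 45.8% of all genes, with a median of 0.17 against -0.03 over all genes. For 23 of 47 both Myc libraries lay above both controls, against 18.3% of all genes, and for 2 of 47, Xpo4 and Xpo1, both lay below, against 16.9%. Nup210 had the smallest p of the 47. It had 1218 and 1208 normalised reads in Myc quadriceps and 693 and 696 in control quadriceps, a log2 change of 0.80 (SE 0.154; limma, unadjusted p = 0.000924, adjusted p = 0.337). Ranbp1 had 258 and 320 in Myc quadriceps and 147 and 169 in control quadriceps (log2 change 0.86; limma, adjusted p = 0.457), and Ipo4 had 1319 and 1232 in Myc quadriceps and 882 and 765 in control quadriceps (0.63; limma, adjusted p = 0.465). Kpnb1 had 2863 and 2752 in Myc quadriceps and 2000 and 1829 in control quadriceps (0.55; limma, adjusted p = 0.589), and a single limma fit of all 11 libraries together called it (adjusted p = 0.0422). In each of these genes the pairs of libraries were apart by more than they differed within a pair. The slow-fibre gene Myh7 had 174 and 156 normalised reads in Myc quadriceps and 9731 and 76140 in control quadriceps. The part of sampled fibre types in the quadriceps changes, and in the difference between the muscles, was not tested.

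**Figure D3:**
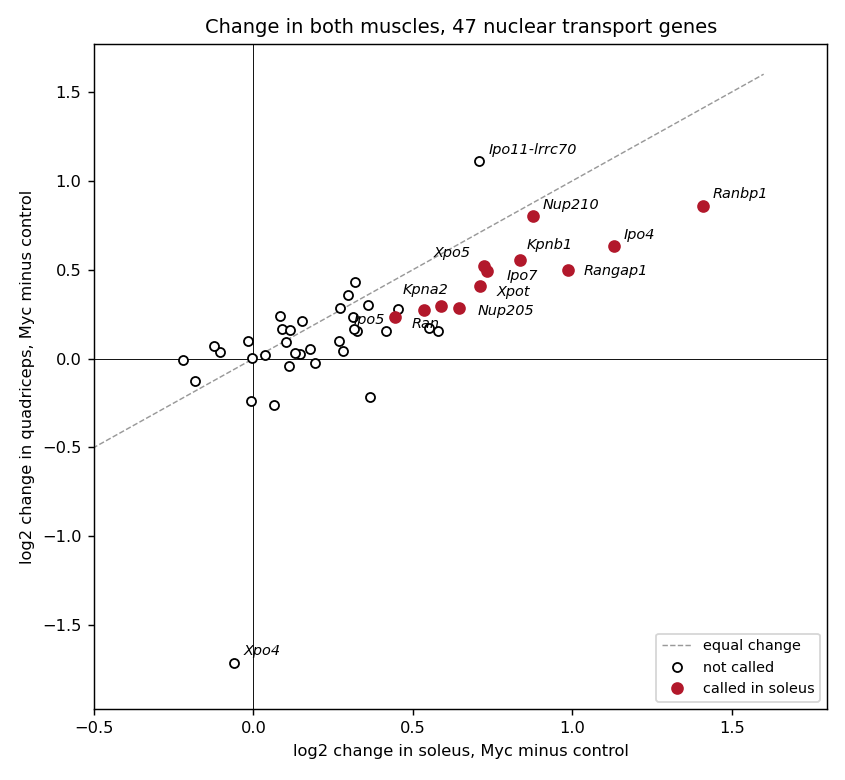
Log2 change, Myc minus control, in quadriceps (vertical axis) against soleus (horizontal axis) for 47 transport genes; filled points were called in soleus and the dashed line marks equal change. All 12 filled points lie above 0 on both axes and below the dashed line, and Xpo4 lies alone at -1.71 in quadriceps and -0.06 in soleus.

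All 12 genes called in soleus had positive log2 changes in quadriceps, as did 97.0% of all 896 soleus-higher genes tested in both muscles. Their median log2 change was 0.73 in soleus and 0.50 in quadriceps, beside 0.74 and 0.41 for those 896 genes; since both sets were picked for passing in soleus, a smaller median in quadriceps says nothing of these genes. Over all 47 genes the 2 sets of changes had a Pearson correlation of 0.666 and a Spearman correlation of 0.804 (0.792 and 0.796 without Xpo4), beside 0.457 and 0.514 over all 11971 genes; these describe genes of the same libraries, which are not independent. The difference between the muscles was tested directly, and 0 of 47 transport genes passed by limma, as did 0% of all genes tested, and 0 by limma-voom. At an unadjusted p under 0.05 there were 3 (3.18% of all genes), each with a more positive change in soleus (2.59% of all genes): Xpo4, Ipo4 and Rangap1. Ipo4 differed by 0.50 (95% interval 0.10 to 0.89) and Rangap1 by 0.49 (0.03 to 0.94), both with a limma adjusted p of 0.999. Nup210 differed by 0.07, with an interval from -0.45 to 0.60.

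Xpo4, the exportin of eIF5A and Smad3, was the exception between the muscles, and it is described here because of its values. In soleus it had 2537, 1621, 1594 and 1918 normalised reads in Myc and 2196, 2044 and 1688 in control libraries, with overlapping groups (log2 change -0.06; limma, adjusted p = 0.869). In quadriceps it had 240 and 238 in Myc and 462 and 1336 in control libraries, a log2 change of -1.71 (SE 0.57; limma, unadjusted p = 0.0424, adjusted p = 0.778). The Myc libraries were alike and the controls differed widely from each other. Without control replicate 1 the change was -2.48 and was called (limma, adjusted p = 0.0225), and without control replicate 2 it was -0.95 (limma, adjusted p = 0.999). The slow-fibre gene Myh7 moved with it: it had 174 and 156 normalised reads in Myc quadriceps and 9731 and 76140 in control quadriceps, and between 193200 and 266500 in all soleus libraries. Tnnc1, slow troponin C, had 31.9 and 39.5 in Myc quadriceps and 1203 and 8658 in control quadriceps. Xpo4 and both slow-fibre genes were thus lower in both Myc quadriceps libraries than in both controls, and higher in control replicate 2 than in control replicate 1, and the part of the sampled fibre types in its change was not tested. The difference between the muscles was 1.65 (95% interval 0.43 to 2.88; limma, unadjusted p = 0.0142, adjusted p = 0.999).

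**Figure D4:**
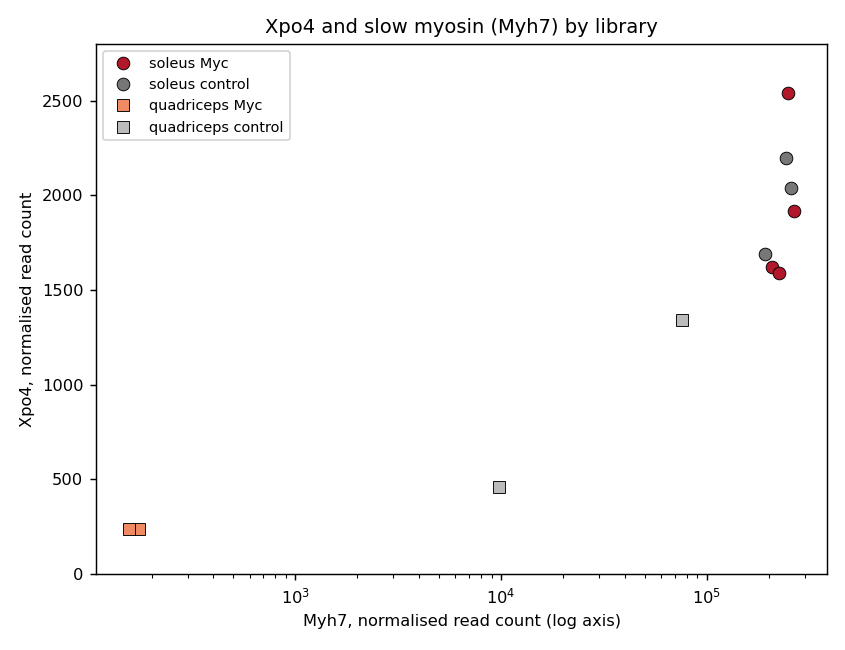
Normalised reads of Xpo4 (vertical axis) against those of the slow myosin gene Myh7 (horizontal log axis) in all 11 libraries; circles are soleus and squares quadriceps. The 2 Myc quadriceps libraries sit at the lower left (240 and 238 reads of Xpo4), the 2 control quadriceps libraries further right and higher (462 and 1336), and the 7 soleus libraries at the right between 1594 and 2537.

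Levels can be compared between genes only per length, and were divided here by the longest protein-coding GENCODE transcript, so a gene whose muscle isoform is shorter is understated. On that scale control soleus was led by carriers: Ipo13, which works in both directions, had 1450 ± 199 normalised reads per kilobase in Myc soleus (SD, n = 4) and 1460 ± 98.3 in control soleus (SD, n = 3), and Ipo5 had 1660 ± 84.0 in Myc and 1220 ± 73.1 in control soleus. The lowest library of Ipo13 in control soleus (1370) lay above the highest of Ipo5 (1290), whereas in Myc soleus the ranges of both genes (1260 to 1720 for Ipo13 and 1560 to 1770 for Ipo5) overlapped. Next came Ipo7, with 988 ± 16.7 in Myc and 595 ± 26.8 in control soleus, and Kpna3, with 583 ± 43.8 in Myc and 567 ± 27.0 in control soleus. These neighbours overlapped in control soleus (564 to 612 and 536 to 583) and were apart in Myc soleus. The lowest 3 by mean in control soleus were pore genes, just below the importin Tnpo1 (28.4 ± 4.21 in Myc and 25.3 ± 1.08 in control soleus), while the pore genes Nup88 and Nup62 stood in the upper part of the order (259 and 198 in control soleus). Nup160 had 18.7 ± 2.03 in Myc and 20.5 ± 2.7 in control soleus, Nup155 had 30.2 ± 3.41 in Myc and 20.5 ± 1.48 in control soleus, and Nup205 had 35.5 ± 1.67 in Myc and 23.1 ± 5.69 in control soleus. The control ranges of these 3 overlapped. In control quadriceps Ipo13, Kpna3, Ipo5, Kpna1 and Ipo7 stood highest, at 1330 ± 96.6, 1040 ± 231, 887 ± 10.6, 810 ± 226 and 740 ± 104 per kilobase (SD, n = 2); Ipo13 lay above the others in both libraries, and the ranges of each later pair of neighbours overlapped.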

How the data were processed

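Per the labels, libraries were grouped by title. The authors deposited 1 table per muscle with a normalised signal per gene, estimated reads divided by 1 size factor per library; this was read from the values, of which 91.1% to 93.5% under 300 were whole multiples of a library's step within 0.02 reads. Per the submitters' processing notes, tools included DESeq2, Partek and STAR 2.7.8a and builds mm10 and mm39, none with a stated role; the deposited tables hold no coordinates. The tables were scaled separately, and each muscle was fitted alone.

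The test was limma 3.58.1 (R 4.3.3, statmod 1.5.0) on log2(value + 1), moderated robustly towards a trend in the mean, for genes that reached 10 in 3 or more libraries of soleus or in 2 or more of quadriceps; fold changes of low genes are understated. P-values were adjusted by Benjamini-Hochberg over all genes tested, and a call is an adjusted p under 0.05. The difference between muscles was 1 fit over all 11 libraries, treated as independent. Nothing says that libraries came from separate animals, so the p-values measure sample-to-sample spread, which may be technical. Replicates differed by more than counting noise. The script was checked on simulated data. Values after ± are SD unless SE is written.

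The genes and lists were chosen with earlier results of these data known. Named were called genes, the Ran cycle, Kpnb1, importin alpha genes, Xpo1, Cse1l, Xpot, Xpo5, transportins, Nup98, Nup153, Nup62, Nup210 and up to 4 genes of each neighbouring list by p in soleus; other names (Xpo4, Ipo8, Ipo9, Ipo11, Ipo13, Xpo6, Xpo7, the other pore genes, Nupl2, Tpr, Myh7 and Tnnc1) were added after their values were seen. Symbols were matched to RefSeq (GRCm38.p6) for 47 of 47 genes and transcript lengths taken from GENCODE. None of the 12 called genes overlaps another listed gene. Kpna2 has a processed pseudogene that could take some of its reads, and pseudogenes elsewhere of the other called genes were not searched for.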

Additional observations from a re-analysis of the deposited data

Results flagged for a closer look

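Of 47 sets of 4 Myc soleus values examined, 2 held a library far from the others, where chance gives about 1 in 20. Nup188 stood at 306 normalised reads in Myc replicate 2, against 358 to 370 in the other Myc libraries and 216, 302 and 309 in control soleus (gap over range 0.83, on log2(value + 1)). Rcc1 stood at 161 in Myc replicate 4, against 125 to 130 in the other Myc libraries and 99.8, 52.4 and 140 in control soleus (gap over range 0.833). Neither gene was called.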

How the results depend on the processing

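Alternatives were the filter, pseudocount, scaling, limma-voom, robust moderation, 1 fit over all 11 libraries, a replicate block, leaving out each library, and leaving out Myc soleus replicates 3 and 4 together; all ran. Of the 12 soleus calls, 10 held in all 18 alternatives, and Kpna2 and Nup205 lost theirs in 8 and 12. Called members in soleus numbered 10 to 12 with 1 library left out, 10 without both Myc replicates 3 and 4, 15 under library-size scaling and 10 under upper-quartile scaling. Not called in the reported fit, Cse1l was called with library-size scaling (adjusted p by limma, 0.0242) and with the block (0.0329), Nup155 in 3 alternatives (0.0446 to 0.0498), Nup85 in 2 (0.0294 and 0.048) and Nup214 under library-size scaling (0.041).

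Over all genes, calls in soleus were 776 to 1015 with 1 library left out (776 without control replicate 2) and 630 without Myc replicates 3 and 4. In quadriceps they were 0 under library-size scaling, 94 in 1 fit (1 of them a member, Kpnb1), and 3 to 137 with 1 library left out (0 to 1 members). For the difference they were 4 without robust moderation and 0 to 17 with 1 library left out (0 to 1 members). Same-numbered libraries were not shown to be pairs (correlations of deviations from -0.0298 to 0.162); with the replicate block, calls were 1216 in soleus, 4 in quadriceps and 20 for the difference, and members 12, 0 and 0.

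Calls in neighbouring lists with 1 library left out were 3 to 6 for pore proteins outside the rule, 1 to 3 for other carriers, 2 to 3 for mRNA export, 2 to 3 for the envelope and 0 to 1 for SUMO; without Myc replicates 3 and 4 they were 2, 1, 1, 1 and 1. The SUMO count was also 1 under upper-quartile scaling, in 1 fit and with the block. The cause was not tested.

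Across all 47 transport genes, signs turned only where no call had been made. With 1 library left out, the ranges of those that turned in soleus were -0.00264 to 0.0811 for Kpna3, -0.0395 to 0.017 for Kpna4, -0.0189 to 0.126 for Xpo1, -0.204 to 0.0195 for Xpo4, -0.105 to 0.0452 for Ipo13, -0.137 to 0.105 for Ipo9, -0.196 to 0.467 for Nup35, -0.0298 to 0.27 for Nup43 and -0.0121 to 0.455 for Nup54. Soleus signs also turned without Myc replicates 3 and 4 (Kpna3 -0.0526, Kpna4 0.0128, Xpo4 0.0459), under upper-quartile scaling (Kpna3 -0.00204), library-size scaling (Kpna4 0.0394, Ipo13 0.0281, Ipo9 0.0409), limma-voom (Ipo9 0.005) and with the block (Nup43 -0.0147). In quadriceps the ranges with 1 library left out were -0.0075 to 0.315 for Cse1l, -0.296 to 0.217 for Ipo11, -0.233 to 0.222 for Ipo8, -0.105 to 0.117 for Ipo9, -0.235 to 0.341 for Kpna1, -0.206 to 0.252 for Kpna3, -0.0958 to 0.165 for Nup133, -0.288 to 0.376 for Nup153, -0.0313 to 0.373 for Nup155, -0.465 to 0.0301 for Nup37, -0.113 to 0.439 for Nup43, -0.436 to 0.388 for Nup54, -0.065 to 0.124 for Nup88, -0.186 to 0.385 for Nup93, -0.34 to 0.0835 for Nup98, -0.141 to 0.452 for Rcc1, -0.0337 to 0.363 for Xpo6 and -0.105 to 0.16 for Xpo7. Quadriceps signs also turned under library-size scaling (Ipo11 0.0227, Ipo8 0.0565, Nup54 0.0381), limma-voom (Ipo8 0.00294) and upper-quartile scaling (Ipo9 -0.00835).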
